A study of Mus musculus with 90 samples.

Results

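Livers of Diversity Outbred mice given zileuton differed several-fold in their mRNA for Cyp2c29 and Cyp2c55, cytochrome P450 enzymes that drugs can induce, and the animals at the ends of this range are compared here. The 49 zileuton animals were ranked by a score, the mean of log2(value + 1) of Cyp2c29 and of Cyp2c55 in the authors' normalized table, each scaled over the 49. The 16 animals of highest score are called strong and the 16 of lowest score weak, so 32 of 90 animals in the series enter the main comparison. The animals were thus chosen by their measured Cyp2c29 and Cyp2c55, and both genes were left out of every test. All were female mice of the Diversity Outbred (J:DO) stock, whose members each combine alleles of several founder strains, aged 6 to 20 weeks. Strong and weak animals, and 17 zileuton animals between them, had received zileuton by mouth at 300 mg per kg once a day for 7 days, and 41 vehicle animals had received sterile distilled water. Zileuton inhibits 5-lipoxygenase, and the series title gives its liver toxicity as the subject. Total RNA from 25 mg of liver, with an integrity number of at least 8, was sequenced as 1 library per animal. No animal was measured before dosing, so strong and weak describe a level after treatment and not a change within an animal.

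Cytochrome P450 enzymes oxidise drugs and other lipophilic compounds, mostly in the endoplasmic reticulum of hepatocytes. Mouse Cyp2c29, Cyp2c55 and Cyp2b10 are well-known targets of CAR and PXR (Nr1i3 and Nr1i2), nuclear receptors that sense foreign compounds and also raise conjugating enzymes, haem synthesis and P450 reductase. Other receptors act on the same tissue: PPARalpha drives peroxisomal and mitochondrial fatty acid oxidation, AhR drives Cyp1a genes, and NRF2 drives antioxidant genes.

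The proximal promoters of the ranking genes and of Cyp2b10, the CAR and PXR target with the largest difference below, are shown because CAR and PXR act through pairs of the hexamers AGGTCA and AGTTCA. Each is the RefSeq window from 250 bases before to 50 bases after a transcription start on build GRCm38.p6, plus strand, and capitals mark TATAAA on the coding strand and either hexamer on either strand. The windows lie at chr19:39286835-39287134, chr19:39006769-39007068 and chr7:25897408-25897707.
Cyp2c29: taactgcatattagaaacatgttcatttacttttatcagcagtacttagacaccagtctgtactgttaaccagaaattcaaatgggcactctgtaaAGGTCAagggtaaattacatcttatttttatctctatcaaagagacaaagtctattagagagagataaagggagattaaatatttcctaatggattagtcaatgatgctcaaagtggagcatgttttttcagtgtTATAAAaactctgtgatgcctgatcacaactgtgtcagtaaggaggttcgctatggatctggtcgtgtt
Cyp2c55: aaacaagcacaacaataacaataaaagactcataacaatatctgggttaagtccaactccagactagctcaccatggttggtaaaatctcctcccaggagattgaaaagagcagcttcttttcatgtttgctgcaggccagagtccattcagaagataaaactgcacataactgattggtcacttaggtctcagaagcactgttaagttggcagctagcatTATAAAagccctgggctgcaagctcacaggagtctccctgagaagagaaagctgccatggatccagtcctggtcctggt
Cyp2b10: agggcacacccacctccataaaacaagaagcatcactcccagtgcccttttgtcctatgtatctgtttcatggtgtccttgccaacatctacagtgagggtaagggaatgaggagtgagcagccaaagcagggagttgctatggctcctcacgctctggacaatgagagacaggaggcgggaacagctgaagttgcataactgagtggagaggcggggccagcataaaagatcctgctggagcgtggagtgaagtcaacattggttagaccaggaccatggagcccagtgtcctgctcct
TATAAA stood in the windows of Cyp2c29 and Cyp2c55, against 8.32% of all 32851 RefSeq promoters of this length, and a single hexamer stood in that of Cyp2c29, against 27.7%. The hexamers as direct repeats spaced by 3 or 4 bases, or as everted repeats spaced by 6, on both strands, occurred in 0.0122%, 0.0274% and 0.00913% of all promoters. They occurred in 0 of the 205 promoters of the 159 genes that were higher in strong animals and had an entry, and in 0 of the 89 promoters of the 64 lower genes with an entry. Among promoters of all tested genes they occurred in 0 of 12893, so these counts do not set the called genes apart. A match is a description of these letters in these windows and says nothing of a factor's binding.

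Cyp2c29 (chromosome 19, 39269405 to 39330713, on mm10 as all further positions) ran from 7887 to 16850.4 CPM with a median of 11444 in strong livers, from 3102 to 6921 CPM with a median of 5731 in weak livers, and from 1009 to 16913 CPM with a median of 2136 in vehicle livers. CPM are the library's counts scaled to a fixed total. Cyp2c55 (chromosome 19, 39007019 to 39042693) ran from 58.5 to 223 CPM with a median of 120.3 in strong livers, from 6.24 to 63.3 CPM with a median of 34.8 in weak livers and from 0.845 to 234 CPM with a median of 3.56 in vehicle livers. Strong and weak animals did not overlap in Cyp2c29 and overlapped narrowly in Cyp2c55, as the ranking fixes. Of the 16 weak animals, 16 lay above the vehicle median in each gene. Among vehicle animals 5 exceeded the lowest weak animal in Cyp2c29 and 11 did so in Cyp2c55, and vehicle replicate 37 lay above every zileuton animal in both.

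**Figure D1:**
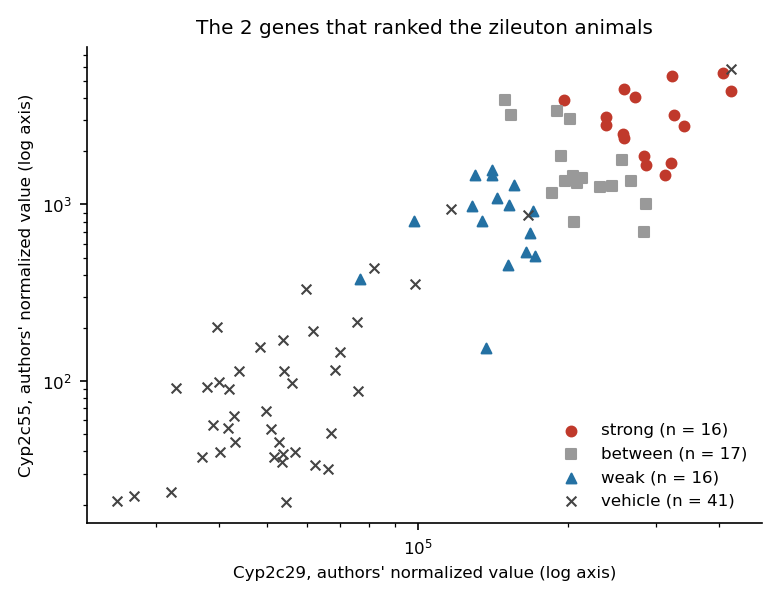
The authors' normalized values of Cyp2c29 (x axis, log scale) and Cyp2c55 (y axis, log scale), with 1 point per animal, for 16 strong, 17 between, 16 weak and 41 vehicle animals. Weak animals sit between most vehicle animals and the strong animals, and 1 vehicle animal, replicate 37, sits at the top of the strong ones.

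The score ran from 1.82 to 0.524 in strong animals and from −0.497 to −2.29 in weak animals. Just outside the groups, the animal of rank 17 had a score of 0.442 and that of rank 33 a score of −0.433, so the edges of the groups are not gaps. The ranking genes went together only in part, with Pearson's r of 0.58 over 49 zileuton animals and 0.681 over 40 vehicle animals without replicate 37, on log2 values within libraries that share their scaling. Of the 16 strong animals, 13 were in the top 16 for Cyp2c29, 12 for Cyp2c55 and 9 for both. Of the 16 weak animals, 14 were in the bottom 16 for Cyp2c29, 12 for Cyp2c55 and 10 for both. Against the working name, groups of 16 formed from Cyp2c55 alone gave 6 called genes, and groups formed from Cyp2c29 alone gave 565.

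Libraries held 12664579 to 38865109 estimated counts in strong animals and 16634576 to 33508647 in weak animals. Both groups had the liver's defining genes, with a summed level of Alb, Ttr and Apoa1 of 80660 to 118000 CPM in strong and 58150 to 125600 CPM in weak animals. Animal numbers fell into 8 runs of 50 consecutive numbers, whose meaning the labels do not give, and the groups were spread unevenly over them. Runs 1 to 8 held 4, 3, 1, 0, 0, 2, 1 and 5 strong animals against 0, 1, 3, 9, 0, 0, 3 and 0 weak animals (chi-square statistic under permutation of the group labels, 100000 resamples, adjusted p = 0.00015 over 5 tests). Position of the number within its run, total count and plate column (two-sided permutation of the mean difference) and coat colour (permutation of chi-square) gave adjusted p = 0.924 each. Plate row was not tested for balance. Strong against weak and run therefore cannot be told apart for most of the 32 livers. Replicate numbers count within the zileuton or the vehicle animals. The library of weak replicate 24 held skeletal muscle transcripts, with a summed marker level of 2383 CPM, and so did vehicle replicate 8 (4472 CPM), against at most 2.31 CPM in strong animals.

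The main comparison asked which other genes differed between livers of high and low drug-inducible P450 mRNA under the same dose. Strong livers had more mRNA of Cyp2b10, of 4 further Cyp2c genes, of Por and Alas1, of 4 glutathione transferases, of 14 of 37 PPARalpha targets and of single glucuronidation genes, and less of single genes such as Scarb1, Coq8a, G6pc and Saa1. Most members of each list were not called. Counts per list below stand beside the shares over all tested genes, 1.54% called higher and 0.68% called lower. The edgeR quasi-likelihood test called 288 of 12950 genes (2.22%) at an adjusted p under 0.05, 200 (1.54%) higher and 88 (0.68%) lower in strong animals, and 34 (0.263%) differed at least 2-fold. The median log2 difference over all tested genes was −0.01. For 0 of these genes did the 16 strong and 16 weak animals fail to overlap. With run as a term 0 genes were called by edgeR, and 9 of the 288 had the other sign. In that fit 534 of 12950 genes had an unadjusted p under 0.05, against 1997 without run. The 534 are below the share of 0.05 that would be reached with no difference in any gene. Plate row and column as terms left 39 called genes, of which 38 were among the 288. Values with run as a term follow for the named genes that were called, and none of them was called in that fit.

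Cyp2b10, a P450 classically induced through CAR (chromosome 7, 25897620 to 25926624), ran from 283 to 1830.1 CPM with a median of 729 in strong livers, from 51.3 to 508 CPM with a median of 199 in weak livers and from 24.6 to 3141 CPM with a median of 86.8 in vehicle livers. Strong and weak livers overlapped in part, with 16 of 16 strong animals above the weak median. Its log2 fold change of strong over weak was 1.99 ± 0.29 (SE, adjusted p = 3.51e-04), and with run as a term it was 1.86 (adjusted p = 0.809). Of 24 tested CAR and PXR targets outside the Cyp2c family, 4 were higher and 0 lower, with a median log2 difference of 0.36. The others were Tsku, a secreted leucine-rich protein (1.83 ± 0.33, adjusted p = 0.00197), Abcc4, an efflux pump of conjugates (1.14 ± 0.19, adjusted p = 0.00122), and Ces2c, a carboxylesterase (1.05 ± 0.2, adjusted p = 0.00282). Of the distinct 50-base words in the transcripts of Ces2c, 34.3% also occur in other Ces2 genes, so its value may hold their reads. In the fit with run, Abcc4 stood at 0.06, Tsku at 1.46 and Ces2c at 0.71, and the list median was 0.22. Cyp3a11, the classical PXR target, had medians of 5439.6 CPM in strong, 4785 CPM in weak and 2989 CPM in vehicle livers and was not called between strong and weak (0.17 ± 0.19, adjusted p = 0.69).

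Among 12 other Cyp2c genes tested, 4 were higher and 0 lower, with a median log2 difference of 0.3. Cyp2c37, Cyp2c50 and Cyp2c54, closely related P450 genes, were higher by 0.78 ± 0.18, 0.55 ± 0.1 and 0.71 ± 0.14 (adjusted p = 0.0143, 0.00249 and 0.00431). Their median levels were 1111, 2459 and 1200.4 CPM in strong livers against 726, 1657 and 761 CPM in weak livers. Cyp2c53-ps, a pseudogene, was higher by 1.32 ± 0.31 (adjusted p = 0.0182) at medians of 2.83 CPM in strong and 1.33 CPM in weak livers. Reads of such paralogs can be split wrongly between them: of the distinct 50-base words in the transcripts of Cyp2c37, Cyp2c50 and Cyp2c54 (GENCODE release M21), 30.1%, 18.3% and 25.7% also occurred in another Cyp2c gene, though 0% in Cyp2c29 or Cyp2c55. With run as a term Cyp2c37, Cyp2c50, Cyp2c54 and Cyp2c53-ps stood at 0.46, 0.26, 0.57 and 1.29, and the list median was 0.36. For Cyp2c53-ps 7.32% of these words occurred in Cyp2c29, so its value is not independent of the ranking.

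Por and Alas1, which serve the P450 reaction, were higher in strong livers. Por, the reductase that passes electrons to microsomal P450 enzymes (chromosome 5, 135670033 to 135735326), ran from 371 to 1467 CPM with a median of 709 in strong livers and from 149.5 to 755 CPM with a median of 388 in weak livers, against a vehicle median of 247. Alas1, the first and limiting enzyme of haem synthesis (chromosome 9, 106233455 to 106248654), ran from 176 to 1152 CPM with a median of 665 in strong livers and from 97.1 to 622 CPM with a median of 235 in weak livers, against a vehicle median of 151. Both overlapped between strong and weak livers, with 15 (Por) and 15 (Alas1) of 16 strong animals above the weak median. Por was higher by 0.89 ± 0.18 on the log2 scale (SE, adjusted p = 0.00651) and Alas1 by 1.17 ± 0.27 (adjusted p = 0.0141). Of 14 genes of electron supply and haem synthesis tested, 4 were higher and 0 lower, the others being Cyb5a, cytochrome b5 (0.42), and Cpox, a later haem enzyme (0.41), and the list's median was 0.1. After adding run, Alas1 stood at 0.98, Por at 0.16, Cyb5a at 0.3 and Cpox at 0.06, and the list median was 0.033.

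The mRNA of CAR and PXR was not called. Nr1i3 (CAR) had medians of 103 CPM in strong and 98.4 CPM in weak livers (0.12 ± 0.11, adjusted p = 0.619), and Nr1i2 (PXR) had 88.8 CPM in strong and 93.5 CPM in weak livers (0.052 ± 0.11, adjusted p = 0.856). Of 23 xenobiotic receptors and partners tested, 1 was higher, Nr1h4, the bile acid receptor FXR (0.32 ± 0.076, adjusted p = 0.0179), and 1 lower, Foxa3, a hepatocyte transcription factor (−0.4 ± 0.1, adjusted p = 0.0345), a call lost in 10 of 32 fits without 1 animal. Cyp1a2, an AhR target that metabolises aromatic amines, was the 1 called of 7 AhR targets, with medians of 1831 CPM in strong, 1178 CPM in weak and 629 CPM in vehicle livers (0.51 ± 0.12, adjusted p = 0.017). Over all tested genes 1.54% were higher and 0.68% lower, so single calls in lists this short say little of the list. The fit with run gave −0.34 for Nr1i3, −0.18 for Nr1i2, 0.16 for Nr1h4, −0.041 for Foxa3 and 0.28 for Cyp1a2.

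**Figure D2:**
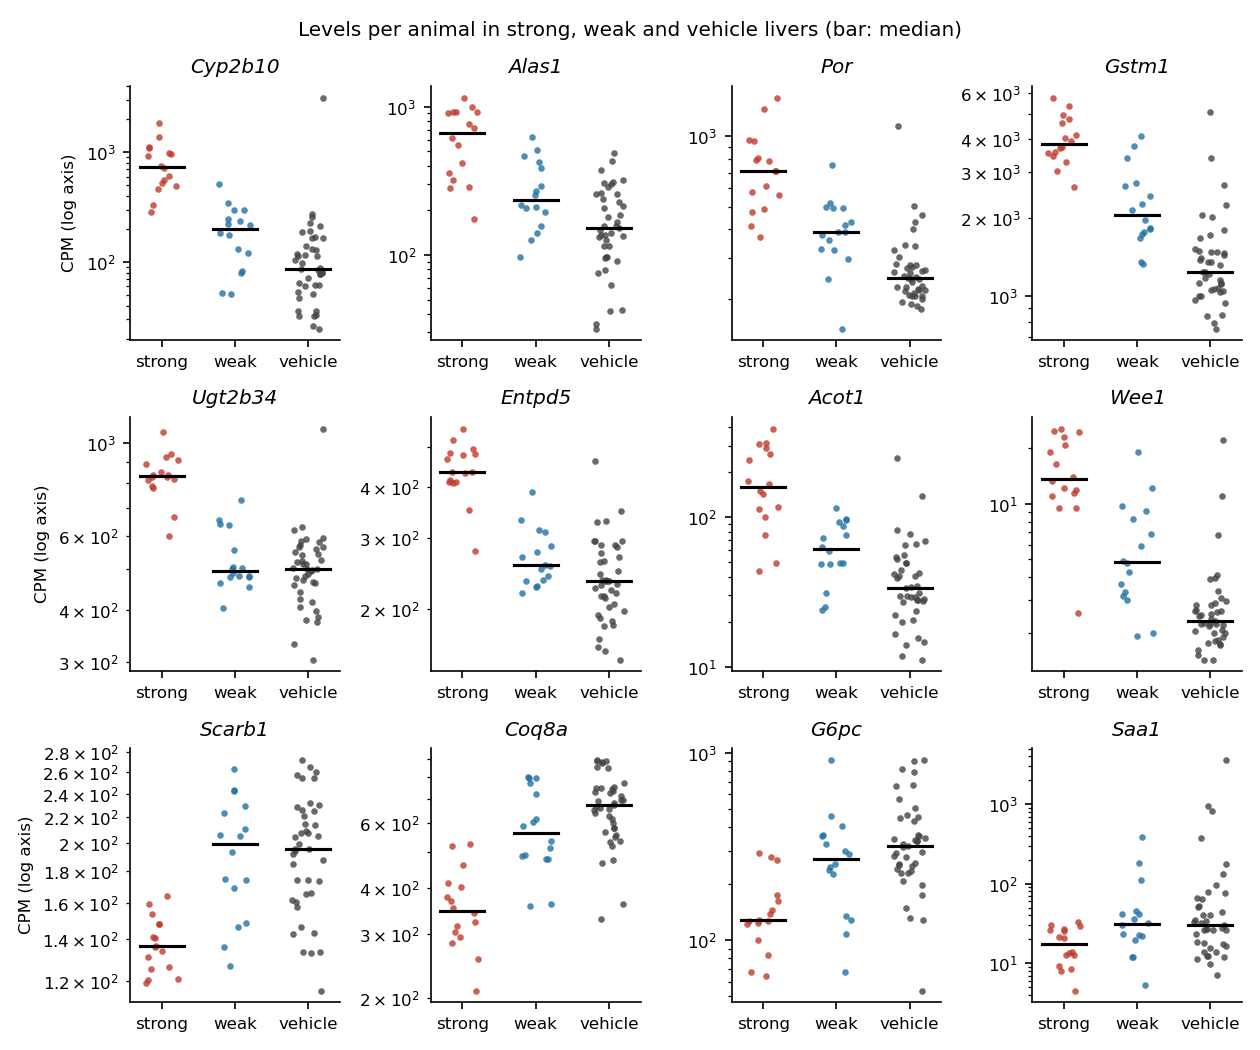
CPM per animal on log axes for 12 named genes, in strong (n = 16), weak (n = 16) and vehicle (n = 41) livers, with a bar at the median. Cyp2b10, Gstm1, Ugt2b34 and Entpd5 have 16 of 16 strong animals above the weak median, and Scarb1 has 0 of 16 strong animals above it.

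Single enzymes of glucuronidation were also higher. Ugt2b34, a glucuronosyltransferase (chromosome 5, 86889767 to 86906937), ran from 601 to 1061 CPM with a median of 832 in strong livers and from 404 to 729.6 CPM with a median of 495 in weak livers, while the vehicle median was 501. It was higher by 0.66 ± 0.077 (SE, adjusted p = 4.29e-06). Slc35d1, which carries UDP-glucuronic acid into the endoplasmic reticulum (0.42 ± 0.052, adjusted p = 9.48e-06), and Ugdh, the enzyme that makes this sugar donor (0.6 ± 0.12, adjusted p = 0.00326), were higher too. Entpd5, a nucleotide diphosphatase of the endoplasmic reticulum (chromosome 12, 84373857 to 84409029), ran from 278 to 556 CPM with a median of 434 in strong and from 219.6 to 389 CPM with a median of 256 in weak livers (0.7 ± 0.082, adjusted p = 4.29e-06). Of 16 strong animals, 16, 16 and 16 lay above the weak median of Ugt2b34, Slc35d1 and Entpd5. Of 24 glucuronosyltransferases, sulfotransferases and partners tested, 4 were higher and 0 lower, with Ugt2b35 at 0.72 and Ugt2b5 at 0.41 besides Ugt2b34 and Ugdh, and the median was 0.11. Of the transcript words of Ugt2b5, 41.7% also occur in other Ugt2b genes, so its value may hold their reads. Run as a term left Ugt2b34 at 0.37, Entpd5 at 0.25, Slc35d1 at 0.32, Ugdh at 0.48, Ugt2b35 at 0.5 and Ugt2b5 at 0.32, while the list median turned to −0.068.

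Of 21 glutathione transferases tested, 4 were higher and 0 lower, with a median log2 difference of 0.25. Gstm1, an abundant mu class enzyme (chromosome 3, 108012255 to 108017973), ran from 2619 to 5783 CPM with a median of 3848 in strong livers and from 1334 to 4115 CPM with a median of 2055 in weak livers, and the vehicle median was 1243. It was above the weak median in 16 of 16 strong animals (0.8 ± 0.14, adjusted p = 0.00197). Gstp1, the pi class enzyme, was at 0.7 ± 0.15 (adjusted p = 0.00669), although 33.7% of its transcript words also occur in Gstp2. Gstm4 and Gstt3 were at 0.47 and 0.4 and lost their calls in 12 and 15 of 32 fits without 1 animal. Of 27 tested NRF2 targets, 5 were higher and 0 lower. They were Ephx1, the microsomal epoxide hydrolase (0.7 ± 0.14, adjusted p = 0.00431), Srxn1, sulfiredoxin (0.65 ± 0.1, adjusted p = 3.96e-04), Nqo1, a quinone reductase (0.58), Gsr, glutathione reductase (0.45), and Htatip2 (0.51, lost in 15 of 32 such fits). Including run, Gstm1 stood at 0.35, Gstp1 at 0.14, Gstm4 at 0.2, Gstt3 at 0.045, Ephx1 at 0.11, Srxn1 at 0.46, Nqo1 at 0.021, Gsr at 0.29 and Htatip2 at 0.068. The list medians were then 0.033 for glutathione transferases and 0.13 for NRF2 targets, against 0.2 for NRF2 targets without run.

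The list of PPARalpha targets held the most called members. Of 37 tested, 14 were higher and 0 lower in strong livers, beside the 1.54% of all tested genes that were higher, and the median log2 difference was 0.46. Acot1, an acyl-CoA thioesterase of the cytosol (chromosome 12, 84009490 to 84018371), ran from 43.9 to 391 CPM with a median of 159 in strong and from 24 to 116 CPM with a median of 61.1 in weak livers, against a vehicle median of 33.7 (1.5 ± 0.28, adjusted p = 0.00245). Acot2, the mitochondrial form, was at 1.17 ± 0.22 (adjusted p = 0.00288). Of the transcript words of Acot1, 13.6% occur in Acot2, and of those of Acot2, 24.5% occur in Acot1, so the pair may exchange reads. Mogat1, of triglyceride assembly, was at 1.18 ± 0.32 (adjusted p = 0.044) and lost its call in 19 of 32 fits without 1 animal. Smaller differences were seen in Pex11a, which drives peroxisome division (0.78), Acot4 (0.72), Acaa1b, a peroxisomal thiolase (0.69), Plin2, which coats lipid droplets (0.63), Fabp1, the fatty acid carrier (0.54), and Slc25a20 and Cpt2, of mitochondrial fatty acid import (0.5 and 0.44). When run was a term, the list median was 0.019, Acot1 stood at 0.15, Acot2 at −0.046, Mogat1 at 0.32, Pex11a at 0.0085, Acot4 at 0.18, Acaa1b at 0.24, Plin2 at 0.22, Fabp1 at 0.25, Slc25a20 at 0.29 and Cpt2 at 0.15. The other called members were Decr1 (0.46), Aldh3a2 (0.43), Eci1 (0.43) and Creb3l3 (0.42). With run these members stood at 0.015, −0.052, −0.008 and 0.255. Acot4, Aldh3a2 and Eci1 lost their calls in 6, 11 and 2 of 32 fits without 1 animal. Without weak replicate 24, the muscle-containing library, 11 members were higher.

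**Figure D3:**
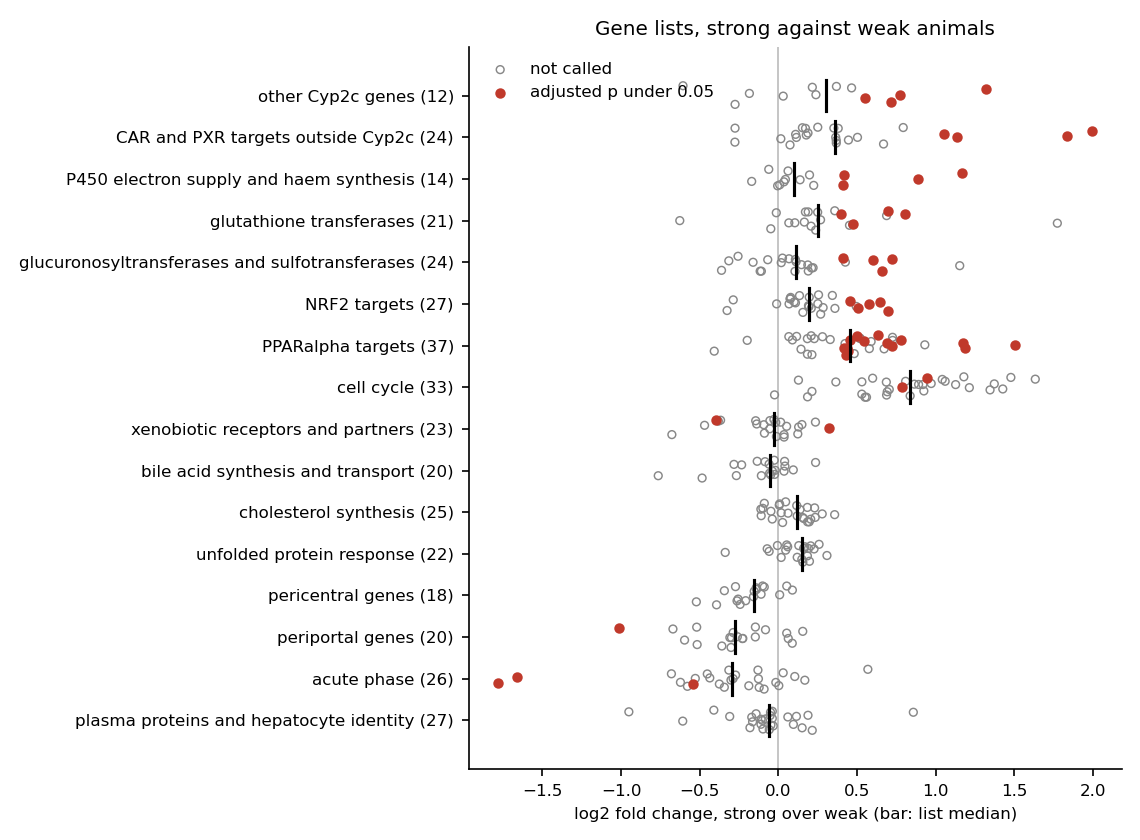
Log2 fold change of strong over weak (x axis) for the tested members of 16 lists, with filled points for an adjusted p under 0.05 and a bar at the list median. The 14 filled points of the PPARalpha list lie right of 0, and the cell cycle list has a median of 0.84 with 2 filled points.

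Of 33 cell cycle genes tested, 2 were higher and 0 lower, Mcm5 and Mcm2, subunits of the replicative helicase (0.94 ± 0.26 and 0.79 ± 0.18, adjusted p = 0.0447 and 0.0126). Over all tested genes 1.54% were called higher. The median of the cell cycle list was 0.84, with 32 of 33 members above 0. Levels were low: Mcm2 ran from 3 to 14.8 CPM with a median of 5 in strong and from 2.19 to 4.25 CPM with a median of 3.37 in weak livers, and 11 of 16 strong animals lay above the weak median. Outside the list, Wee1, a kinase that delays mitosis and is also under clock control (chromosome 7, 110122046 to 110143286), ran from 2.54 to 25.6 CPM with a median of 13.7 in strong and from 1.93 to 19 CPM with a median of 4.83 in weak livers (1.28 ± 0.29, adjusted p = 0.0139). Ect2, an exchange factor of cytokinesis (1.52 ± 0.31, adjusted p = 0.00512), and Uhrf1, which maintains DNA methylation at replication (1.26 ± 0.35, adjusted p = 0.048), were higher as well. Mcm5 and Uhrf1 lost their calls in 20 and 21 of 32 fits without 1 animal, and without strong replicate 4 stood at 0.7 (adjusted p = 0.0959) and 0.88 (adjusted p = 0.122). Run in the fit gave 0.89 for Mcm5, 0.56 for Mcm2, 0.77 for Wee1, 0.75 for Ect2 and 0.93 for Uhrf1, and a list median of 0.67.

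The remaining genes among the largest increases belonged to no list. They were 5330417C22Rik (2.12 ± 0.51, adjusted p = 0.0211), Chrna2, a nicotinic receptor subunit (1.5 ± 0.29, adjusted p = 0.00393), and Clstn3, a calsyntenin (1.18 ± 0.3, adjusted p = 0.0316). Chrna2 had medians of 8.69 CPM in strong and 3.32 CPM in weak livers, with 16 of 16 strong animals above the weak median. Clstn3 was not called without strong replicate 47 (0.99, adjusted p = 0.0626). Once run was a term, 5330417C22Rik stood at 0.75, Chrna2 at 0.26 and Clstn3 at 0.78.

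Among genes lower in strong livers, those of lowest p were Scarb1, Coq8a and Tab2. Scarb1, the receptor that takes cholesterol from high-density lipoprotein (chromosome 5, 125277087 to 125341094), ran from 119 to 164 CPM with a median of 136 in strong livers and from 127 to 264 CPM with a median of 199 in weak livers, against a vehicle median of 196. Coq8a, of coenzyme Q synthesis (chromosome 1, 180165238 to 180199602), ran from 209.7 to 526 CPM with a median of 347 in strong livers and from 357 to 804 CPM with a median of 564 in weak livers, against a vehicle median of 672. Of 16 strong animals, 0 and 0 lay above the weak median of Scarb1 and Coq8a. Scarb1 was at −0.49 ± 0.085 (SE, adjusted p = 0.00146), Coq8a at −0.72 ± 0.13 (adjusted p = 0.00166), Tab2, an adaptor of TAK1 signalling, at −0.48 ± 0.09 (adjusted p = 0.00245) and Stat5b, which relays growth hormone, at −0.44 ± 0.092 (adjusted p = 0.00669). With run as a term Scarb1 stood at −0.53, Coq8a at −0.61, Tab2 at −0.29 and Stat5b at −0.2.

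G6pc, the enzyme that releases glucose from hepatocytes, had medians of 127 CPM in strong, 272 CPM in weak and 319 CPM in vehicle livers (−1.01 ± 0.27, adjusted p = 0.0401) and was the 1 called of 20 periportal genes. Nckap5 (−1.31 ± 0.27, adjusted p = 0.00609) was called whichever animal was left out. Adcy1, an adenylate cyclase (−2.79 ± 0.67, adjusted p = 0.0195), stood at −1.24 (adjusted p = 0.115) without weak replicate 22. Of 18 male-biased genes 2 were lower, Hsd3b5, a steroid enzyme (−2.18), and Selenbp2 (−1.48), which stood at −0.93 (adjusted p = 0.112) without weak replicate 28. Of 19 female-biased genes 1 was lower, Atp6v0d2, a proton pump subunit (−0.92). Of 5 clock genes that peak with Bmal1 1 was called lower, Nfil3, a clock repressor (−0.86). All 5 had a log2 fold change under 0, with a median of −0.86. Of 12 clock genes of the opposite phase 0 were called, and 10 lay above 0, with a median of 0.3. Beside the 0.68% of all tested genes that were lower, 1 or 2 calls in lists of this length say little of the list. Col4a3, a basement membrane collagen chain, was at −1.4. Calls of G6pc, Hsd3b5, Selenbp2, Atp6v0d2, Nfil3 and Col4a3 were lost in 17, 21, 15, 13, 22 and 6 of 32 fits without 1 animal. The values with run were −0.72 for G6pc, −1.07 for Nckap5, −2.08 for Adcy1, −0.21 for Hsd3b5, −1.25 for Selenbp2, −1.03 for Atp6v0d2, −0.44 for Nfil3 and −2.12 for Col4a3.

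A clock score, the mean scaled level of the opposite-phase set minus that of the Bmal1 set, was 1.66 ± 1.11 in strong, 0.588 ± 1.34 in weak and −1.31 ± 1.27 in vehicle animals (SD, n = 16, 16 and 41). With it as a term 260 genes were called, 81.9% of them higher, and 163 of the 288 were among them. Called PPARalpha targets then numbered 8, Cyp1a2 (0.37) was not called, and 4 genes of the unfolded protein response were called higher, against 0 without the term. Nfil3 (−0.29) was not called either, but it belongs to the Bmal1 set that makes the score, so its smaller value was built in. Por stood at 0.58 and Wee1 at 0.74, both still called.

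Saa1, a serum amyloid A protein of inflammation, ran from 4.49 to 33.3 CPM with a median of 17.3 in strong livers, from 5.37 to 383 CPM with a median of 31 in weak livers and from 7.06 to 3658 CPM with a median of 30.6 in vehicle livers. Its relative Saa2 ran from 2.35 to 21.8 CPM with a median of 11.1 in strong livers, from 3.91 to 164 CPM with a median of 15.1 in weak livers and from 3.28 to 2869 CPM with a median of 17.2 in vehicle livers. The highest values of both were in vehicle livers. They were at −1.78 ± 0.46 and −1.66 ± 0.46 (adjusted p = 0.0324 and 0.0451) and, without weak replicate 14, at −1.19 and −1.24 (adjusted p = 0.0993 and 0.119). Their calls were lost in 4 and 19 of 32 fits without 1 animal. Of 26 acute phase genes tested 3 were lower and 0 higher, beside the 0.68% of all tested genes that were lower. The remaining one of the 3 was Itih3 (−0.54), whose call was lost in 25 of 32 fits without 1 animal. Of the transcript words of Saa2, 30% also occur in Saa1, so the pair cannot be separated fully. Saa1, Saa2 and Itih3 stood at −1.83, −1.73 and −0.36 with run as a term.

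A group of muscle genes among the lower calls moved with 1 library. Pygm, muscle glycogen phosphorylase, reached 105.6 CPM in weak replicate 24 and lay between 0.882 and 2.11 CPM in the other weak livers, against 0.495 to 1.77 CPM in strong livers. Without that library Myom1, Pygm and Des moved to −0.13, −0.44 and −0.12 and were not called, and Neb moved to −0.92 (adjusted p = 0.00931). In the fit with run and all 32 animals, Myom1, Pygm, Des and Neb stood at −1.12, −0.26, −0.069 and −0.99. Without that library 231 genes were called in all.

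Several programmes of this tissue had 0 calls between strong and weak livers, beside the 2.22% of all tested genes that were called. These were cholesterol synthesis (0 of 25, median log2 difference 0.12), fatty acid synthesis (0 of 22, −0.03), bile acid synthesis and transport (0 of 20, −0.05), pericentral genes (0 of 18, −0.16), the unfolded protein response (0 of 22, 0.15), the integrated stress response (0 of 15, −0.12), p53 targets (0 of 16, −0.01), interferon response (0 of 22, −0.13), leukotriene and eicosanoid genes (0 of 18, −0.05) and plasma proteins (0 of 27, −0.06). Cyp2e1, an abundant pericentral P450, had medians of 7485 CPM in strong and 7030 CPM in weak livers (0.008 ± 0.13, adjusted p = 0.984). Hspa5, a chaperone of the endoplasmic reticulum, was at 0.16 ± 0.13 (adjusted p = 0.599) and Scd1, of fatty acid synthesis, at −0.17 ± 0.45 (adjusted p = 0.888). Marker lists had 0 calls of 12 tested for Kupffer cells and macrophages, 0 of 12 for endothelium, 0 of 7 for cholangiocytes and 0 of 5 for erythroid cells, and stellate cells had 1 of 11, Des, named above with the muscle genes. Few markers were tested for other cell types, with 6 of 14 for lymphocytes, 2 of 10 for neutrophils and mast cells, 2 of 11 for pancreas and fat and 1 of 9 for skeletal muscle, so their 0 calls say little. At a share of 2.22%, the longer lists above would also hold few or no calls. Their 0 calls do not show that a programme or cell type was unchanged. Summed Kupffer and macrophage markers ran from 97.3 to 638 CPM in strong and from 143 to 625 CPM in weak livers. In bulk tissue, fewer cells of a type and less RNA per cell cannot be told apart.

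Runs 2, 3 and 7 held both groups, with 3, 1 and 1 strong animals against 1, 3 and 3 weak animals. Cyp2b10 medians in strong and weak livers were 1108 and 344 CPM in run 2, 283 and 221 CPM in run 3 and 466 and 52.2 CPM in run 7, so strong livers were higher in 3 of 3 runs. Alas1 had the same order, with 615 and 217 CPM, 283 and 157 CPM and 716 and 195 CPM for strong and weak livers of the same runs. Scarb1 was lower in strong livers in each, at 136 and 193 CPM, 148 and 210.4 CPM and 137 and 175 CPM. Por did not keep the order, at 489 and 496 CPM, 371 and 419 CPM and 559.7 and 519 CPM, and neither did Acot1, at 292 and 72.9 CPM, 49.3 and 49.7 CPM and 43.9 and 59.1 CPM. With only the animals of these runs, 1 gene was called, and it was not among the 288 of the main comparison. Run medians of the score in zileuton animals ran from −0.854 in run 7 and −0.684 in run 4 to 0.604 in run 1 and 0.834 in run 8. Vehicle animals, on their own scale, had run medians of −0.497, −0.617, 0.294, −0.321, −0.171, 0.057, −0.521 and 0.0318 in runs 1 to 8, with 3 to 6 animals each.

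**Figure D4:**
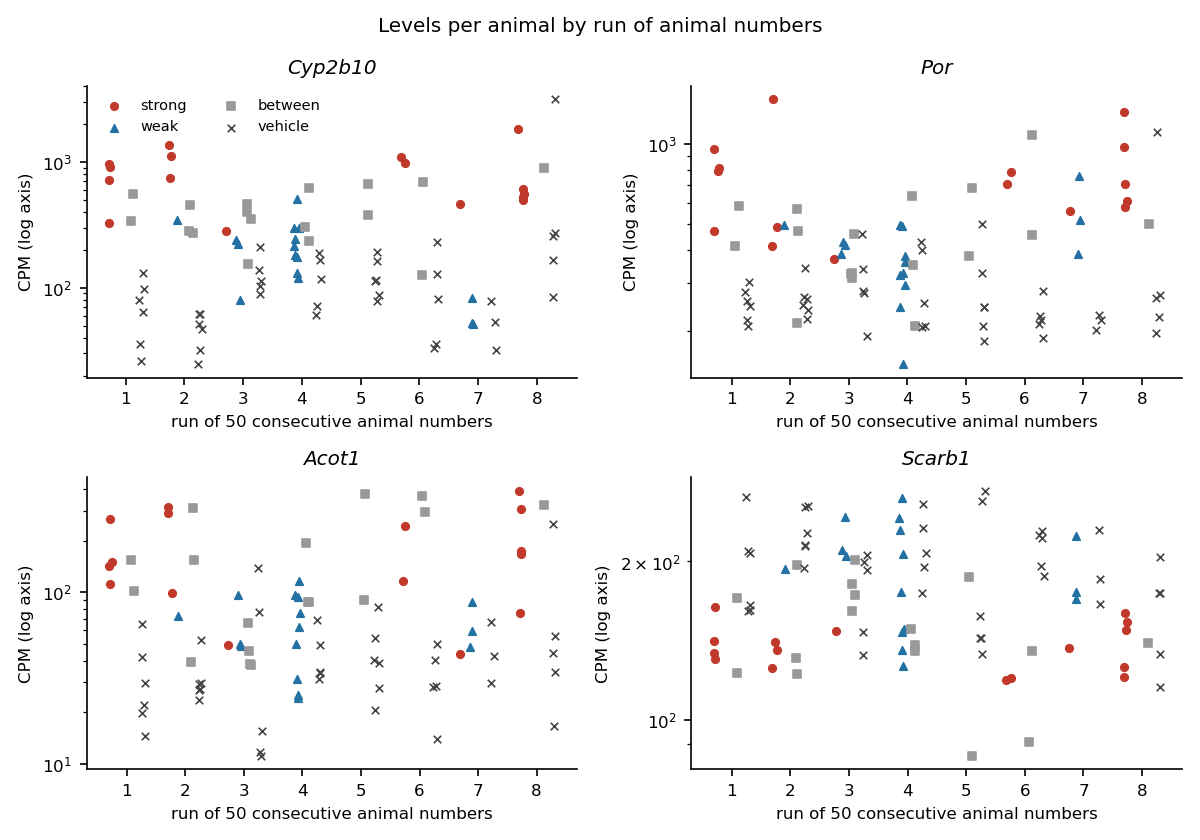
CPM on log axes for Cyp2b10, Por, Acot1 and Scarb1 by run of 50 consecutive animal numbers (x axis), with 1 point per strong, weak, between or vehicle animal. Run 4 holds 9 weak and 0 strong animals and run 8 holds 5 strong and 0 weak animals.

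Strong and weak livers were then each set against the same 41 vehicle livers. Strong against vehicle called 3165 of 13761 genes (23% of those tested), 1606 (11.7%) higher and 1559 (11.3%) lower, and weak against vehicle called 1572 (11.4%), 829 (6.02%) higher and 743 (5.4%) lower. Cyp2b10 was at 2.18 in strong over vehicle (adjusted p = 6.02e-07) and at 0.19 in weak over vehicle (adjusted p = 0.81). The 0.19 does not mean equal levels in most animals. The weak median of 199 CPM exceeded the vehicle median of 86.8 CPM, and 12 of 16 weak animals lay above the latter. Means were 203 CPM in weak and 178 CPM in vehicle livers, the latter including the highest vehicle animal at 3141 CPM. Log2 differences of strong over vehicle and of weak over vehicle were 0.71 and 0.061 for Ugt2b34, 0.86 and 0.17 for Entpd5, 0.66 and 0.018 for Srxn1 and −0.51 and −0.015 for Scarb1, with adjusted p of 0.687, 0.247, 0.928 and 0.941 in the weak animals. Por (1.39 and 0.51), Gstm1 (1.45 and 0.66), Gstp1 (1.31 and 0.62), Cyp1a2 (1.33 and 0.82), Cyp2c54 (1.42 and 0.7) and Wee1 (2.31 and 1.03) were called in both comparisons. Over the 200 genes higher in strong than in weak livers, the median log2 difference from vehicle was 0.37 in strong and 0.02 in weak livers. Of these 161 were called higher than vehicle in strong and 27 in weak livers, and 18 were called lower in weak livers. Over the 88 lower genes the medians were −0.6 in strong and −0.05 in weak livers, with 77 called lower in strong and 14 in weak livers. The strong and weak animals are those that chose the 288 genes, so these counts are a description. Vehicle animals held positions 13 to 20 within their runs and strong and weak animals positions 25 to 50, so treatment and position cannot be told apart.

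Vehicle animals gave a test in livers the ranking did not use. The same score was computed over the 41 vehicle animals, and each gene's slope per SD of it was tested. Of 12396 genes, 118 (0.952%) were called, 85 (0.686%) higher and 33 (0.266%) lower with the score. Without vehicle replicate 8, the muscle-containing library of lowest score, 96 were called, 79 higher and 17 lower. Of the 288 genes called between strong and weak livers, 278 were tested here, 249 had a slope of the same sign as their fold change, and 42 were called, each with the same sign. These 42 are 14.6% of the 288 genes and 35.6% of the 118. Cyp2b10 had the steepest positive slope among them, 0.99 ± 0.086 (SE, adjusted p = 2.82e-10), followed by Wee1 (0.66, adjusted p = 4.46e-06), Clstn3 (0.64), Abcc4 (0.58), Ces2c (0.48), Ephx1 (0.47, adjusted p = 7.25e-06) and Acot1 (0.46), and Gstm1 was at 0.39 (adjusted p = 5.85e-05). Scarb1 (−0.043, adjusted p = 0.835), Coq8a (−0.074, adjusted p = 0.674) and Alas1 (0.33, adjusted p = 0.239) were not called. In the fit without vehicle replicate 8, 244 of 278 slopes had the same sign and 37 of the 288 genes were called.

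Vehicle replicate 37 bore heavily on these slopes. This animal had a score of 3.87 and was the highest of the vehicle animals, and the labels give no reason. Without it 63 genes were called, 218 of 278 slopes had the same sign, and 11 of the 288 genes were called, which is 3.82% of the 288 and 17.5% of the 63. Cyp2b10 then had a slope of 0.52 (adjusted p = 0.0734), Por of 0.16 (adjusted p = 0.134) and Acot1 of 0.24 (adjusted p = 0.394). The 8 higher genes of the 11 were Wee1 (0.6), Clstn3 (0.58), Acaa1b (0.34), Gstm1 (0.33), Ephx1 (0.32), Cyp2c50 (0.3), Cyp1a2 (0.27) and 4931406C07Rik (0.21), and the 3 lower ones, Pygm, Des and Neb, are muscle genes. Skeletal muscle transcripts were present in weak replicate 24 and in vehicle replicate 8, the vehicle animal of lowest score. Without weak replicate 24, Pygm and Des were not called between strong and weak livers. With run as a term and without replicate 37, 97 genes were called, 202 of 278 slopes had the same sign, and 13 of the 288 were called, among them Wee1 (0.65), Gstm1 (0.41), Cyp1a2 (0.38), Ephx1 (0.34) and Entpd5 (0.23).

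**Figure D5:**
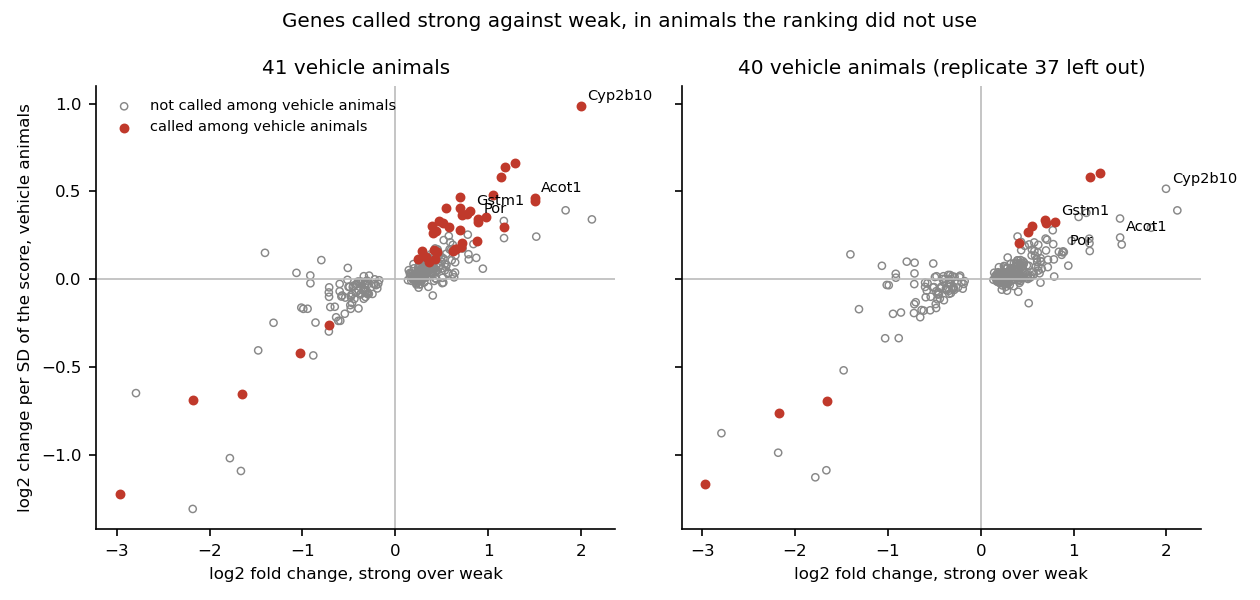
For genes called between strong and weak livers, the log2 fold change of strong over weak (x axis) against the log2 change per SD of the score among vehicle animals (y axis), with all 41 vehicle animals (left) and without replicate 37 (right). Filled points were called among vehicle animals, 42 on the left and 11 on the right, and 249 and 218 of 278 slopes share the sign of the fold change.

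The 17 zileuton animals between the groups gave no call. Of 12208 genes tested against their score, 0 (0%) were called by edgeR, with 362 (2.97%) at an unadjusted p under 0.05, and 0 by limma-voom. Among the 288 genes, 277 were tested there, 177 had a slope of the same sign as their fold change and 8 had an unadjusted p under 0.05. Scores of these animals ran only from −0.433 to 0.442, which limits what slopes could be detected. The slope on the score differed between zileuton and vehicle animals in 2 of 13246 genes (0.0151%), Hpf1 and Bglap3, and 850 had an unadjusted p under 0.05.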

How the data were processed

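RNA-seq of 1 liver library per animal was used. The deposited raw table holds an estimated count per gene (18223 genes) and animal, of which 76.7% are whole numbers, and the second deposited table holds a signal, the rounded estimated counts of each library divided by 1 size factor by the authors. Partek, STAR, DESeq2 and mm10 appear in the submitters' processing notes without versions, and how reads were assigned to genes and strands is not given in the sources used here.

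Estimated counts were rounded and tested with the edgeR 4.0.16 quasi-likelihood F test (TMM factors, robust fit, filterByExpr), two-sided, and every adjusted p is Benjamini-Hochberg over all genes tested; SE is of the log2 value. A gene was called at an adjusted p under 0.05. Levels are CPM with TMM factors over all 90 libraries. The common biological coefficient of variation between the 32 animals was 30.5%. In simulated counts for this comparison (12952 genes), 61% of genes changed by 0.5 and 94% of those changed by 1 on the log2 scale were recovered. The simulated animals were independent and had no runs, so these rates do not cover the uneven runs of the data. Positions come from GENCODE release M21, in which 17880 of 18223 symbols matched. Promoters are RefSeq's on GRCm38.p6. Nothing in the labels says more of replicates than that each is a separate animal; replicate numbers follow accession order.

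The groups, 36 gene lists and tests were chosen with earlier results of these data known. Named were called genes with a mean of at least 1 CPM and medians in the direction of the fold, taking the 12 of largest fold and the 3 of lowest p each way; per list the 2 called members of largest fold, or the most abundant member if none was called; and always Nr1i2, Nr1i3, Por, Alas1, Cyp2b10, Cyp3a11 and Cyp1a2. Other called list members, and genes among the vehicle slopes, were named after their values were seen. Alternatives covered scaling, filter, tool (DESeq2 1.42.0, limma 3.58.1), the authors' values, score, group size, covariates and libraries. Of the genes this rule names, 1 is not reported here.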

Additional observations from a re-analysis of the deposited data

Results flagged for a closer look

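The slope of Hpf1, which encodes a partner of PARP enzymes in DNA repair, on the score differed between exposures by 0.26 ± 0.053 on the log2 scale per SD (zileuton minus vehicle, edgeR interaction, adjusted p = 0.0318). It was 0.17 among 49 zileuton animals (adjusted p = 0.00269) and −0.09 among 41 vehicle animals (adjusted p = 0.404). Levels were 3.60 to 7.91 CPM in zileuton and 3.95 to 9.02 CPM in vehicle livers. The slope of Bglap3 differed by −4.53 ± 0.56 (adjusted p = 5.31e-08), with medians of 0.253 CPM in zileuton and 0.309 CPM in vehicle livers. Its highest vehicle level, 291 CPM in replicate 15, an animal of high score (2.08), stood far above the next, 11.8 CPM, and its highest zileuton level was 577 CPM. By limma-voom 0 genes differed in slope.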

How the results depend on the processing

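Against the 288 genes called between strong and weak livers, DESeq2 called 469, groups of 12 called 137, groups by Cyp2c55 alone 6 and by Cyp2c29 alone 565, run as a term 0, plate row and column as terms 39, a fit without the 4 libraries of lowest total 162, the slope over the 49 animals with run as a term 0 (25 of the 288 with the other sign), and the runs with both groups 1; the last 2 were chosen after seeing the data. The 1 gene called in the runs with both groups was not among the 288. Leaving out 1 animal gave 214 to 380. In place of filterByExpr, a minimum of 10 counts gave 380 genes, of which 51.3% were higher, against 69.4%, and the clock score as a term gave 260, 81.9% higher. The other alternatives stayed within 1.5 times the count. Of 72 genes called and named by the rule or as list members, 47 were called in every fit without 1 animal. With run as a term Acot2, Eci1 and Aldh3a2 had the other sign (−0.046, −0.0080 and −0.052). In the slope with run so did Clstn3 (−0.013), Foxa3 (0.020), Atp6v0d2 (0.065), Cpox (−0.011), Eci1 (−0.035), Aldh3a2 (−0.028), Cpt2 (−0.032), Slc25a20 (−0.0054), Plin2 (−0.080), Acaa1b (−0.010) and Pex11a (−0.062). Among vehicle animals, against 118 genes, leaving out replicate 37 gave 63 and the minimum of 10 counts 489. The slope difference, 2 genes, became 109 with that minimum and 0 by limma-voom. The causes of these changes were not tested. No paired analysis was possible because the labels give no replicate numbers that groups share.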
